A study of Mus musculus with 3 samples.

Results

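The genes described here are 10 members of the actin cytoskeleton and of the targets of serum response factor (SRF): Acta2, Actb, Actg1, Tagln, Tagln2, Myl9, Tpm1, Tpm2, Vcl and Srf. They were chosen by symbol, and all 10 were found among the 32285 genes of the count tables. Transcripts were counted by single-cell RNA sequencing in mouse neural progenitors, cells that can give rise to neurons and glia. The progenitors came from the brains of mice of postnatal day 1, were grown as neurospheres with 20 ng/mL epidermal growth factor, and were plated on a poly-D-lysine coat for 16 h. There were 3 libraries. One was a control, one (bulk) was made after electroporation of the whole culture in a Nucleofector, and one (localized) after 400 pulses at 20 V, delivered by the device on which the progenitors grew. All 3 are labelled as collected 4 h after treatment. The sources used here do not give strain, number of animals or cargo. Whether the control grew on a dish or on a device is not labelled either, so in the localized library an effect of the device and one of the pulses cannot be told apart.

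Actin filaments are built from actin monomers, and cells sense the balance between the pools through the cofactors MRTF-A and MRTF-B. Free monomers hold these cofactors in the cytoplasm. When monomers are drawn into filaments the cofactors enter the nucleus, bind SRF, and SRF switches on genes through a DNA element named the CArG box. Many of its targets encode actin itself and proteins that bundle, brace or pull on filaments, and Srf is among its own targets. A separate family of SRF cofactors, the ternary complex factors, links growth factor signalling to early response genes such as Fos.

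Promoter sequences show which members carry the element close to the start site. RefSeq (GRCm38.p6) windows of 250 bases before to 50 bases after a transcript start were matched to 8 of the 10 members. No window was matched for Actb or Tagln. A CArG box was searched as CC, 6 bases of A or T, and GG, a form that reads as the same motif on both strands. It was found in the windows of Srf, Actg1, Vcl and Myl9, 4 of 8 windows, against 1.63% of all 32851 windows. The members were chosen in part as SRF targets, so a higher share than in all windows follows from the choice. A form with 5 of the 6 inner bases A or T was found 2 times in Acta2 and 1 time in Myl9, and occurs in 8.50% of all windows. The windows of Tagln2, Tpm1 and Tpm2 held neither form, which says only that these letters are not in this stretch. The first base of the Srf matches lay 82 and 62 bases before the start, that of the Actg1 match 90 bases, that of the Vcl match 227 bases, and those of the Acta2 matches 84 and 34 bases before it. The 4 windows below are shown because Srf and Actg1 were lower in both treated libraries, Acta2 had the largest difference between the treated libraries, and Vcl is a member with a CArG box whose level differed little. Capitals mark the matches, and each sequence reads 5′ to 3′ along the gene.
Srf (chr17:46556113-46556412, minus strand): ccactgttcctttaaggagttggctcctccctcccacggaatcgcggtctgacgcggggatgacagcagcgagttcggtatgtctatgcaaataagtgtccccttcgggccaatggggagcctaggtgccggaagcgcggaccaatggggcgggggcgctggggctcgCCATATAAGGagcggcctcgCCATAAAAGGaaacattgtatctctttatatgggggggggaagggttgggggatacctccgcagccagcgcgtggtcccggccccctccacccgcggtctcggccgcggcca
Actg1 (chr11:120348446-120348745, minus strand): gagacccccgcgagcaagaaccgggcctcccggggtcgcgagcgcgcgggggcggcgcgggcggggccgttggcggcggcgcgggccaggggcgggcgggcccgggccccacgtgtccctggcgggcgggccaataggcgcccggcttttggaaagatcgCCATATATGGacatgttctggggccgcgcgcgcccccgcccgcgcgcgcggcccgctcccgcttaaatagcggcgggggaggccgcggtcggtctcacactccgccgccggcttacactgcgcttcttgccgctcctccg
Acta2 (chr19:34255324-34255623, minus strand): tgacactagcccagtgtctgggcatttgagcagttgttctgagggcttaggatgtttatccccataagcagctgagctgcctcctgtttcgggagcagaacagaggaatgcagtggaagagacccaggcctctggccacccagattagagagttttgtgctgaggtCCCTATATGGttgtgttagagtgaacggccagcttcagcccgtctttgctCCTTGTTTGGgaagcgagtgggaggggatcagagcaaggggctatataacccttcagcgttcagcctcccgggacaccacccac
Vcl (chr14:20929148-20929447, plus strand): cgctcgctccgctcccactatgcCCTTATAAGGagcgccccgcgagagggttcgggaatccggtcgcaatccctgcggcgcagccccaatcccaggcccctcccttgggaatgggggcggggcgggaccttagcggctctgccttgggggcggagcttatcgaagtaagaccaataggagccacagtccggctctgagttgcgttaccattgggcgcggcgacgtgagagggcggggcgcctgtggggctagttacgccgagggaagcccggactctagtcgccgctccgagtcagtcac

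A barcode was taken as a cell when it had 3000 or more UMIs (unique molecules), 500 or more genes, and a mitochondrial share of no more than 20%. These limits kept 6091 control, 5531 bulk and 6298 localized cells, with median depths of 9542, 11644 and 10980.5 UMIs. Any 2 libraries shared between 6 and 9 cell barcodes, and no barcode was found in all 3. Depth above 25000 UMIs was reached by 1.12% of control cells, against 9.64% in the bulk and 2.75% in the localized library, and median mitochondrial shares lay between 3.42% and 4.12%. The progenitor label fits the markers: Sox2, Nes, Vim, Fabp7 and Sox9 were each found at 91.7 CPM or more in every library (CPM express a gene's UMIs relative to a common library total). Each group had 1 library, so no test between groups is possible and no difference has a replicate check. Intervals are exact at 95% and cover counting error only. In summed counts, fewer cells that express a gene and less RNA per cell cannot be told apart, and the values per cell further below bear on this.

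Across the 10 members the control and bulk libraries differed little at the median, while most members were lower in the localized library. Of the 10 members, 2 had a higher and 8 a lower level in localized than in control. Among the 5906 genes that reached 20 CPM in 1 or both of these libraries, 62.3% had a ratio above 0 and 37.7% below 0. Since Srf, Myl9 and Tpm2 lie under 20 CPM, a limit of 3 CPM, which every member passes, was added after the values were seen, and there 67.5% of 10698 genes were above 0 and 32.5% below. The members' median log2 ratio (of CPM + 1) was -0.34, against 0.09 and 0.14 for all genes at the limits of 20 and 3 CPM.

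In bulk over control 6 members were higher and 4 lower, where 62.0% of 5810 genes of at least 20 CPM were higher and 38.0% lower (65.8% and 34.2% at 3 CPM). The members' median was 0.09, against 0.07 for all genes of at least 20 CPM and 0.10 for those of at least 3 CPM. In bulk over localized 6 members were higher and 4 lower, where 46.0% of 6002 genes were higher and 54.0% lower (44.5% and 55.5% at 3 CPM). The members' median there was 0.17, against -0.02 and -0.03 for all genes.

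In each comparison 1 of the 10 members differed by 2-fold or more. Shares of all genes are given here at 20 CPM, with those at 3 CPM in brackets. In bulk over control Srf was more than 2-fold lower and no member 2-fold higher, where 0.602% (0.549%) of all genes were lower and 0.602% (1.09%) higher. In localized over control Acta2 was more than 2-fold lower and no member higher, where 1.02% (0.963%) of all genes were lower and 1.22% (1.74%) higher. In bulk over localized Acta2 was more than 2-fold higher and no member lower, where 0.950% (1.18%) of all genes were higher and 0.633% (0.871%) lower.

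At 1.5-fold, Srf and Actg1 were lower in bulk over control and no member was higher, where 1.84% (1.84%) of all genes were lower and 3.53% (5.99%) higher. In localized over control Acta2, Srf and Tagln were lower and none higher, where 2.86% (2.78%) were lower and 6.48% (9.93%) higher. In bulk over localized Acta2 and Tagln were higher and none lower, where 3.40% (4.00%) were higher and 2.98% (4.04%) lower. The ratios over control use the same control library, and were not treated as independent.

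**Figure D1:**
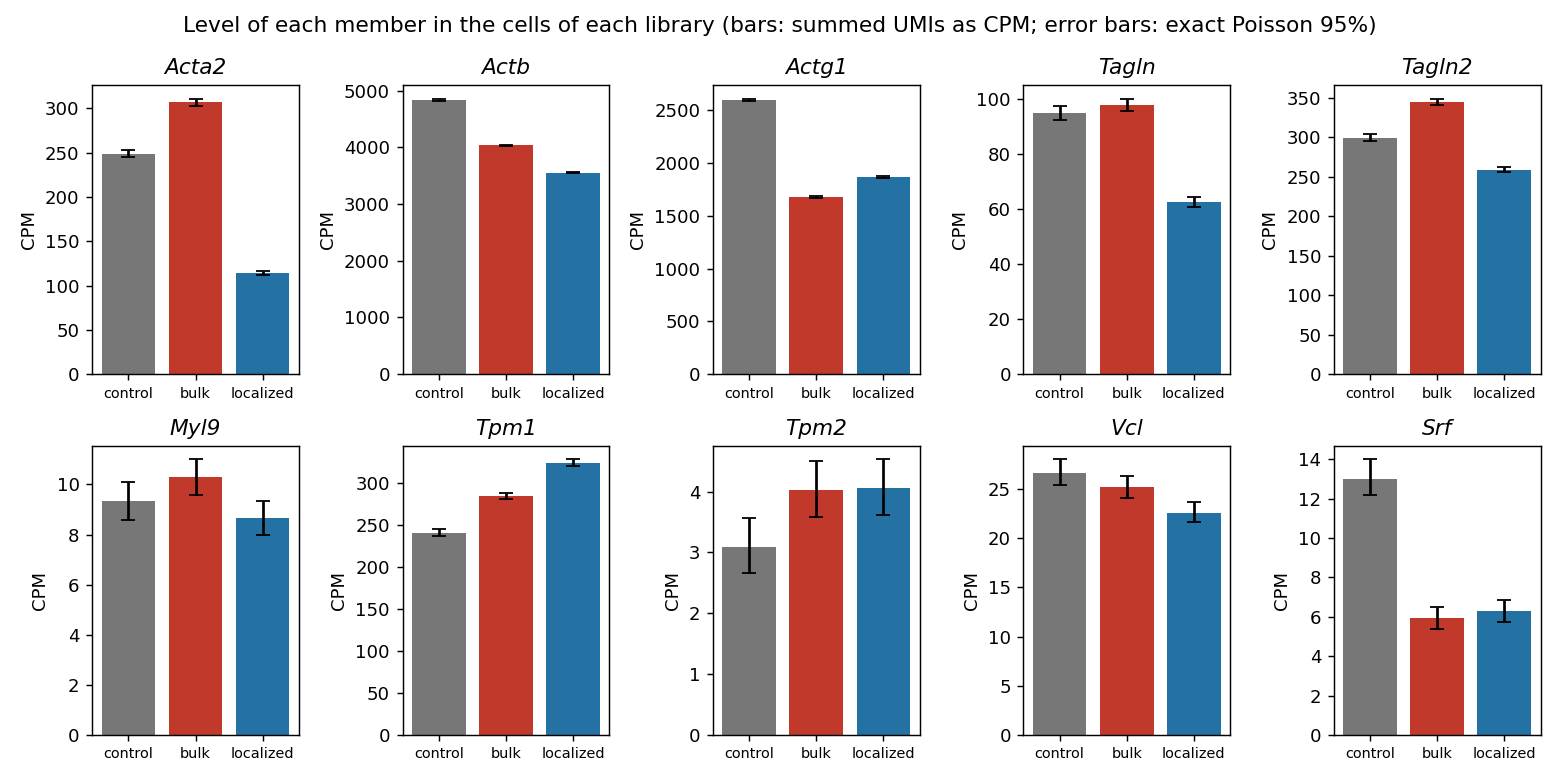
Level of each of the 10 members in the cells of the control, bulk and localized libraries, in CPM, with exact Poisson 95% intervals as error bars. Srf is highest in control, Acta2 is lowest in localized at 114 CPM, and Tpm1 is lowest in control at 241 CPM.

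Srf, the gene of the transcription factor, was sparse, and its level in control was above that of both treated libraries. Its 806 UMIs in control cells gave 13.0 CPM (12.2 to 14.0), the 459 UMIs in bulk cells 5.92 CPM (5.39 to 6.49), and the 479 UMIs in localized cells 6.29 CPM (5.74 to 6.88). Control stands alone, and the intervals of the treated libraries overlap. Srf had a log2 ratio of -1.02 for bulk over control, of -0.95 for localized over control and of -0.07 for bulk over localized. Among genes of at least 3 CPM, Srf ranked 56th from the lowest of 10562 for bulk over control and 118th of 10698 for localized over control. The gene (ENSMUSG00000015605) lies on GRCm38 chromosome 17, 46548329 to 46556175, minus strand.

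Because depth differed between libraries, each cell was also thinned to 3000 UMIs before cells with a UMI were counted. A Srf UMI was then found in 3.84% of control cells, with an exact Clopper-Pearson interval of 3.37 to 4.36. The share was 1.99% in the bulk library (1.64 to 2.39) and 1.73% in the localized library (1.42 to 2.08). Without thinning the shares were 11.6%, 7.77% and 7.11%. In barcodes of 10 to 100 UMIs, which hold mostly free RNA, Srf stood at 14.7 CPM in control, 7.36 CPM in bulk and 4.34 CPM in localized, from 44, 27 and 12 UMIs. Control was highest in these barcodes too, and the part of free RNA in the cell shares was not tested.

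The control level of Srf was the highest of the 3 in each of the 6 clusters that had at least 50 cells in every library. Its log2 ratio over the clusters ran from -1.26 to -0.53 for bulk over control and from -1.15 to -0.34 for localized over control. In the precursor-like cluster 4 the counting intervals of both treated libraries overlapped that of control, and in cluster 5 that of bulk did. In a finer grouping, at Leiden resolution 1.0, cluster 1 held 26.1% of the control Srf UMIs, at 21.3 CPM. That cluster had 12.6% of control, 2.78% of bulk and 1.10% of localized cells, and its part was not tested. Control intervals of that grouping overlapped both treated libraries in clusters such as 0 (9.33 CPM in control) and 5 (8.42 CPM). They overlapped neither in clusters 6 (13.1 CPM) and 7 (13.9 CPM). In each band of depth, from 3000 to 6000 UMIs up to cells over 25000 UMIs, control lay between 11.0 and 13.5 CPM, bulk between 5.48 and 6.94 CPM and localized between 5.60 and 7.81 CPM. With every cell weighted equally the Srf ratios were -0.96 for bulk and -0.87 for localized, both over control.

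Of the genes of the smooth muscle type, Acta2 and Tagln differed more than Myl9 and Tpm2 in both comparisons with the localized library. This did not hold in bulk over control, where Tagln had the smallest ratio of these genes. Acta2 encodes the alpha actin of smooth muscle, which also marks contractile and injury-activated cells elsewhere. It was found at 249 CPM in control (245 to 253, from 15384 UMIs), 307 CPM in bulk (303 to 311, 23776 UMIs) and 114 CPM in localized electroporation (112 to 116, 8688 UMIs). The order was localized, control, bulk, with no overlap of the counting intervals. Acta2 thus had a log2 ratio of 0.30 for bulk over control, -1.12 for localized over control and 1.42 for bulk over localized. Acta2 ranked 26th from the highest of 6002 genes of at least 20 CPM in bulk over localized, and at percentile 0.830 of 5906 genes in localized over control. The gene (ENSMUSG00000035783) lies on chromosome 19, 34241090 to 34255590, minus strand.

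Tagln, which encodes the actin-bundling protein transgelin of smooth muscle, had its lowest level in the same library as Acta2. It was found at 94.9 CPM in control (92.5 to 97.4), 98.0 CPM in bulk (95.8 to 100.2) and 62.5 CPM in localized (60.7 to 64.3). Control and bulk overlapped, and their log2 ratio of 0.05 changed sign under 3 alternatives. The ratio was -0.59 in localized over control and 0.64 in bulk over localized, where Tagln ranked 167th from the highest of 6002 genes. These directions did not hold in the shallowest cells. At 3000 to 6000 UMIs Tagln was highest in localized, at 46.9 CPM against 27.6 CPM in control and 16.7 CPM in bulk. At 6000 to 10000 UMIs bulk, at 54.1 CPM, was below localized, at 60.0 CPM. A band of depth can hold a different mix of cell types in each library, and the part of this mix was not tested. Myl9, a regulatory light chain of non-muscle and smooth muscle myosin, was low, at 9.34 CPM in control (8.59 to 10.1), 10.3 CPM in bulk (9.58 to 11.0) and 8.65 CPM in localized (8.0 to 9.34). The Myl9 intervals of control overlap both of the others, and bulk lies just above localized. Tpm2, a tropomyosin that winds along filaments in muscle and other contractile cells, gave 191, 312 and 309 UMIs, or 3.09 CPM in control (2.67 to 3.56), 4.03 CPM in bulk (3.59 to 4.50) and 4.06 CPM in localized (3.62 to 4.53). Tpm2 did not share the low localized level of Acta2 and Tagln.

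**Figure D2:**
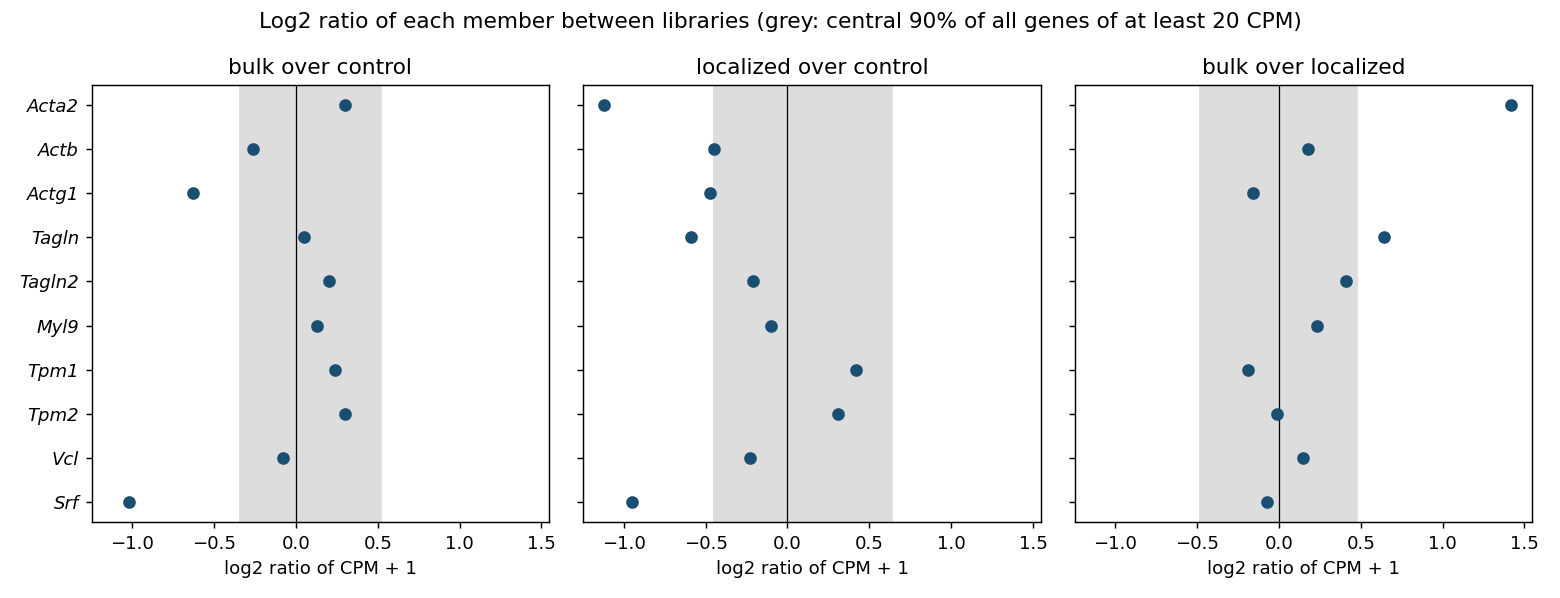
Log2 ratio (CPM + 1) of each member in bulk over control, localized over control and bulk over localized, with the central 90% of all genes of at least 20 CPM in grey. Acta2 at 1.42 in bulk over localized and Srf at -1.02 in bulk over control lie outside the grey range.

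Acta2 and Tagln transcripts were spread unevenly over cells. After thinning, an Acta2 UMI was found in 27.3% of control cells (26.1 to 28.4), whereas the bulk library had 32.4% (31.2 to 33.7) and the localized library 18.8% (17.8 to 19.8), and without thinning in 43.5%, 52.2% and 37.1%. The difference was wider among cells rich in the transcript: 5 or more thinned Acta2 UMIs were held by 3.23% of control cells (197 cells), 4.45% of bulk cells (246) and 0.762% of localized cells (48). The cell richest in Acta2 held 25 thinned UMIs among control cells, 31 among bulk cells and 15 among localized cells. The 10% of cells richest in Acta2 held 67.0%, 62.4% and 73.3% of its thinned UMIs in control, bulk and localized. Mean thinned Acta2 UMIs per cell were 0.640, 0.832 and 0.329. A lower mean alone can widen the difference at 5 or more UMIs and raise the share of the richest cells. For Tagln the shares of cells with a UMI were closer, at 13.0%, 13.8% and 11.9% after thinning and 24.5%, 30% and 24.7% without.

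**Figure D3:**
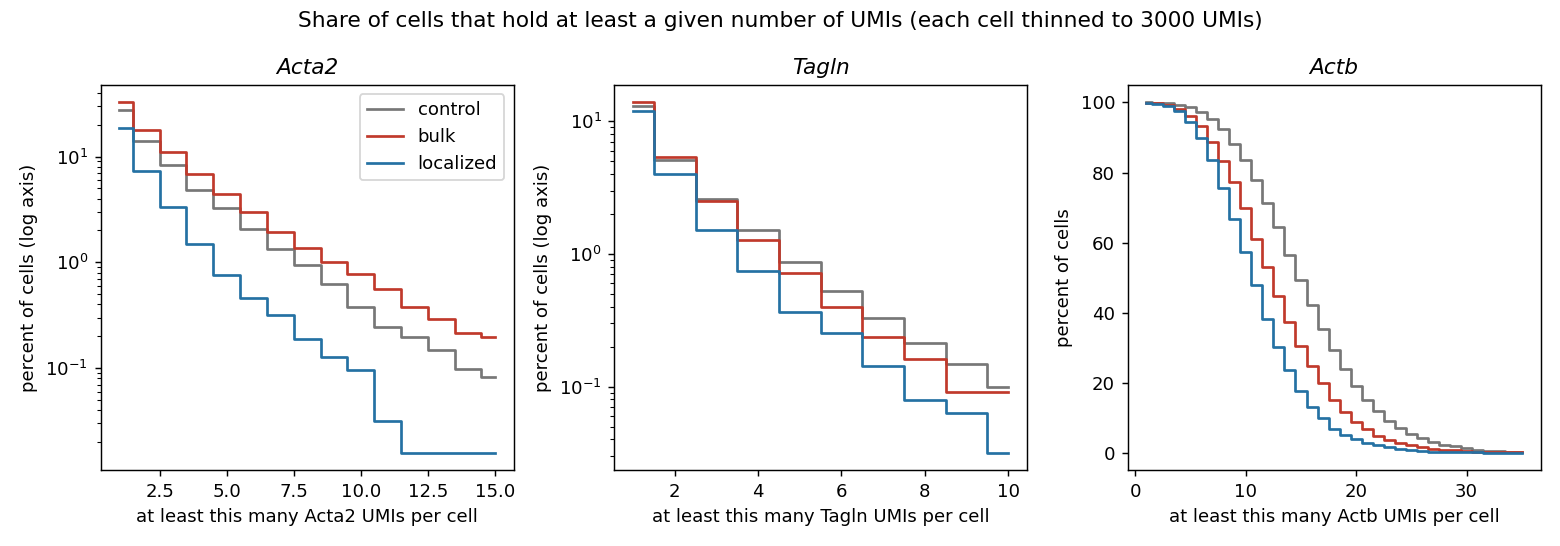
Percent of cells (y, log axis for Acta2 and Tagln) that hold at least the number of UMIs on the x axis, after each cell was thinned to 3000 UMIs, in the control, bulk and localized libraries. At 5 Acta2 UMIs the localized line is at 0.762%, below control at 3.23% and bulk at 4.45%, and the Actb lines stand apart over nearly all cells.

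Tagln UMIs were more frequent in cells with more Acta2 UMIs. A Tagln UMI was present in 6.52% of control cells without a thinned Acta2 UMI, in 26.0% of those with 1 to 4 and in 62.9% of those with 5 or more. In bulk the 3 shares were 6.37%, 25.2% and 56.1%, and in localized 8.41%, 26.4% and 41.7%. Myl9 was ordered the same way, with 1.42%, 4.31% and 7.11% in control, 2.11%, 4.52% and 7.32% in bulk and 2.03%, 4.58% and 8.33% in localized. Tpm2 had 0.451%, 1.37% and 2.54% in control and 0.562%, 1.03% and 4.07% in bulk, but in localized 1.04%, 2.03% and 0 of 48 cells. Tagln2 did not follow this order in control, with 47.3%, 55.6% and 45.7%, or in bulk, with 52.1%, 59.6% and 48.8%. In localized it did, with 45.3%, 51.3% and 54.2%. Vcl did not follow it in control, with 6.73%, 8.75% and 6.60%, or in localized, with 5.94%, 6.34% and 4.17%. In bulk Vcl rose slightly, with 6.74%, 7.24% and 7.32%. Mural markers, described next, had a UMI in 2.01%, 3.42% and 4.06% of the control cells of these classes, and their part in the order was not tested. Over cells, Pearson's r of log thinned UMIs between Acta2 and Tagln was 0.42 in control (6091 cells), 0.43 in bulk (5531) and 0.27 in localized (6298), beside 0.34, 0.33 and 0.25 between Actb and Actg1, which are found together in nearly every cell. The cells of a library share its preparation and free RNA, and the value is a description.

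Apart from Notch3, markers of vessel-wall cells, which also express Acta2, Tagln and Myl9, were near 0. Of 10 mural markers, Vtn and Higd1b were at 0 in every library, and Rgs5, Pdgfrb, Kcnj8, Abcc9 and Myh11 each stood at 0.162 CPM or less. The list summed to 8.50 CPM in control, 10.2 CPM in bulk and 9.31 CPM in localized. Most of this came from Notch3, a receptor gene, at 7.82, 8.68 and 8.09 CPM. Of 6 fibroblast markers, 4 or 5 had a UMI, and their sum was 0.356, 0.516 and 1.19 CPM. Cnn1 and Des, smooth muscle genes among the mural markers, had 8 and 13 UMIs in control, 44 and 55 in bulk, and 44 and 20 in localized. Without the 9 control, 40 bulk and 23 localized cells that had UMIs of 2 or more of these markers, the Acta2 ratio was -1.12 for localized over control and 1.42 for bulk over localized, and that of Tagln -0.57 and 0.64. Those cells were 0.148%, 0.723% and 0.365% of their libraries, so their removal could hardly move a summed ratio. The part of vessel-wall cells was thus not tested.

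Cells were grouped into 9 clusters with the members and their pathway genes left out, so the clusters were not drawn from the genes described here, although genes that vary with them were used. Cluster 0 was led by histone genes, cluster 1 was dividing-like (Cdc20, Cenpf, Ccnb1), cluster 2 astrocyte-like (Apoe, Aqp4), and clusters 4 and 5 oligodendrocyte precursor-like (Pdgfra, Lhfpl3). Cluster 3 stayed unnamed. Cluster 7, led by interferon-response genes, had at least 50 cells in the bulk library alone, cluster 8, oligodendrocyte-like, in the localized library alone, and cluster 6 in none.

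Acta2 was highest in the astrocyte-like cluster 2 and low in the precursor-like clusters of every library. In cluster 2 it stood at 383 CPM in control, 478 CPM in bulk and 172 CPM in localized. Clusters 4 and 5 together had 22.8 CPM in control, 27.1 CPM in bulk and 14.0 CPM in localized, against 282, 344 and 129 CPM in clusters 0 to 3, log2 ratios of -3.57, -3.62 and -3.12. After thinning, an Acta2 UMI was held by 4.32% of precursor-like cells in control (3.21 to 5.67), 3.34% in bulk (2.25 to 4.76) and 2.62% in localized (1.70 to 3.85), against 32.8%, 37.3% and 21.7% of cells in clusters 0 to 3. Median depths were 5585.5, 6583 and 7654 UMIs in precursor-like cells and 10261, 12370 and 11391 UMIs in the others. The shares in clusters 0 to 3 lie above those of the precursor-like cells, at matched depth, in all 3 libraries. Barcodes of 10 to 100 UMIs held Acta2 at 114 CPM in control, 141 CPM in bulk and 107 CPM in localized, the last being 0.935 times the localized cell level, against 0.459 times in control and in bulk.

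Tagln had a higher CPM in bulk than in localized in each of the 6 clusters (0.34 to 1.21), but in clusters 4 and 5 this rests on 61 against 70 and 7 against 3 UMIs, with overlapping intervals, and the thinned shares ran the other way (0.692% against 1.47%, and 0.344% against 0.485%). Tagln was lower in localized than in control in 5 of them (-2.00 to 0.73). The lower localized level of Acta2 was found in each of the 6 clusters, with log2 ratios over control from -1.22 to -0.68. In bulk over control Acta2 was higher in 5 clusters, up to 0.63 in cluster 4, and lower in cluster 5 at -0.99. By depth, Acta2 in localized was below control in each band from 6000 UMIs up, such as 122 against 283 CPM in cells of 10000 to 15000 UMIs. In cells of 3000 to 6000 UMIs the levels were 73.2 CPM in localized, 60.3 CPM in control and 74.9 CPM in bulk, so the localized library was not lower there. Cluster 4, where Acta2 was low, had a median depth of 4828 UMIs in control, 5641.5 in bulk and 7055 in localized. Within that cluster Acta2 was lower in localized, at 15.9 against 26.0 CPM in control. A band can thus hold a different mix of clusters in each library, and the part of this mix was not tested. Bulk was not above control in cells of 6000 to 10000 UMIs, at 197 against 199 CPM, or above 25000 UMIs, at 328 against 335 CPM.

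**Figure D4:**
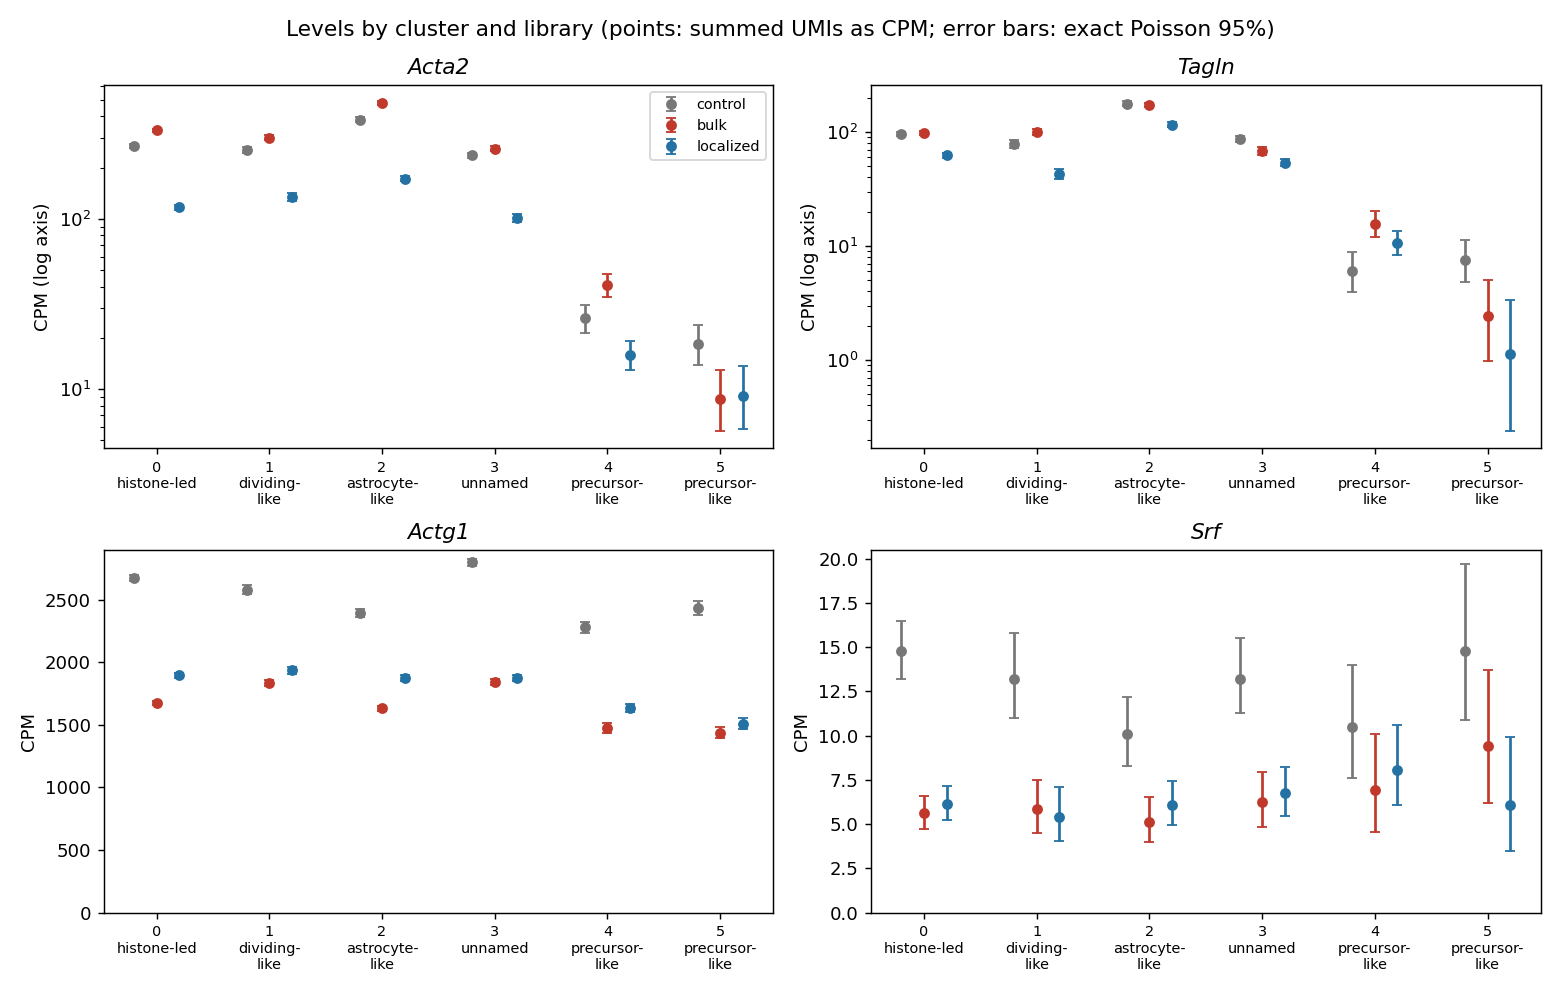
Levels of Acta2 and Tagln (log axes), Actg1 and Srf in 6 clusters and 3 libraries, in CPM, with exact Poisson 95% intervals as error bars. Acta2 and Tagln are low in the precursor-like clusters 4 and 5, while Actg1 and Srf differ more by library than by cluster, with control highest.

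Several other members followed the same split between cell groups, and some did not. Tagln stood at 6.69 CPM in precursor-like cells and 108 CPM in clusters 0 to 3 of control, a log2 ratio of -3.82, with -3.31 in bulk and -3.00 in localized. Tagln2, a transgelin of many non-muscle cells, had -1.48, -1.45 and -1.50 in control, bulk and localized, and Myl9 had -1.79, -2.17 and -2.09. Vcl had -0.54, -0.44 and -0.64. Tpm2 had -1.29, -2.28 and -0.98, but from only 6, 1 and 16 UMIs in precursor-like cells. Actb, at 0.27, 0.09 and 0.18, was on the other side, and Actg1, at -0.16, -0.24 and -0.24, differed little. Tpm1 at 0.15, 0.02 and -0.16 and Srf at -0.10, 0.43 and 0.25 had no common direction.

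**Figure D5:**
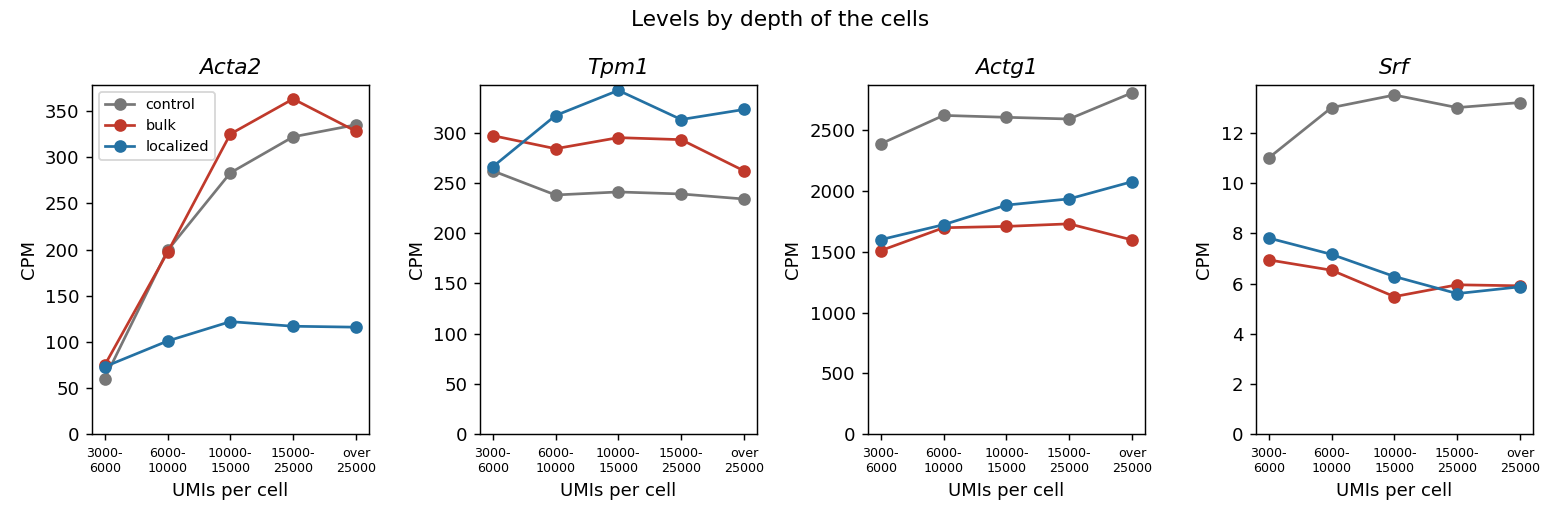
Levels of Acta2, Tpm1, Actg1 and Srf in CPM in cells of 5 bands of UMIs per cell, for the control, bulk and localized libraries. Acta2 is higher in deeper cells than in cells of 3000 to 6000 UMIs in control and bulk, stays between 73.2 and 122 CPM in localized, while Srf is highest in control in every band. A band can hold a different mix of clusters in each library.

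The cytoplasmic actins, which build the filaments of nearly all cells, were lower in both treated libraries. Actb, whose transcript often serves as a reference in expression assays, stood at 4839 CPM in control (4821 to 4856), 4032 CPM in bulk (4018 to 4046) and 3553 CPM in localized (3539 to 3566), log2 ratios of -0.26 and -0.45 over control. Actg1 stood at 2595 CPM in control (2582 to 2608), 1676 CPM in bulk (1666 to 1685) and 1868 CPM in localized (1858 to 1878), log2 ratios of -0.63 and -0.47. No intervals overlapped, and the lowest library was localized for Actb and bulk for Actg1. Actg1 lay at percentile 1.55 of 5810 genes of at least 20 CPM in bulk over control and at 4.61 of 5906 in localized over control, and Actb at 8.54 and 5.13. Actb and Actg1 together took 0.743% of all UMIs in control, 0.571% in bulk and 0.542% in localized.

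The differences were also seen in counts per cell and within clusters. An Actb UMI was found in nearly every thinned cell, and the median number of Actb UMIs was 14 among thinned control cells, 12 among bulk and 10 among localized cells. The 10th and 90th percentiles were 8 and 22 for control, 6 and 19 for bulk, and 5 and 16 for localized. For Actg1 the medians were 7, 5 and 5, and 73.6%, 51.5% and 58.5% of cells held at least 5. In each of the 6 clusters both genes were lower in both treated libraries than in control, with log2 ratios from -0.59 to -0.14 for Actb and from -0.76 to -0.35 for Actg1. In a finer grouping, at Leiden resolution 1.0, cluster 1 held 20.5% of the control Actg1 UMIs, at 3333 CPM. It had 12.6% of control, 2.78% of bulk and 1.10% of localized cells. Actg1 differed less in cluster 0, at 2156, 1911 and 1939 CPM in control, bulk and localized, and in cluster 5, at 1974, 1705 and 1837 CPM. The part of this mix of cells was not tested.

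The balance between the 2 actins differed in bulk. There were 1.86 Actb UMIs per Actg1 UMI in control (1.85 to 1.88), 2.41 in bulk (2.39 to 2.42) and 1.90 in localized (1.89 to 1.91). This count ratio is not corrected for how well each transcript is captured, so only its difference between libraries is described. Within clusters it ran from 1.74 to 2.47 for control, 2.31 to 2.99 for bulk and 1.77 to 2.51 for localized, and the 2 highest values of each library were those of the precursor-like clusters. Bulk was above control and localized in each of the 6 clusters. The coding sequences of the 2 genes are alike, and the handling of reads that match several genes is not described in the labels. Actb (ENSMUSG00000029580) lies on chromosome 5, 142903115 to 142906754, and Actg1 (ENSMUSG00000062825) on chromosome 11, 120345690 to 120348542, both on the minus strand.

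The remaining members brace or bundle filaments, and they went in different directions. Tpm1, a tropomyosin that stabilises filaments, was lowest in control at 241 CPM (237 to 245), with 284 CPM in bulk (280.4 to 288) and 324 CPM in localized (319.8 to 328). Its log2 ratios over control were 0.24 and 0.42, against medians of 0.07 and 0.09 over all genes of at least 20 CPM, and were above 0 in each of the 6 clusters. A Tpm1 UMI was found in 49.9% of control, 55.5% of bulk and 59.4% of localized cells after thinning, and in 83.7%, 91.2% and 92.3% without. Barcodes of 10 to 100 UMIs had the same order, at 161, 194 and 270.3 CPM.

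Tagln2 stood at 299 CPM in control (295 to 304), 345 CPM in bulk (341 to 349) and 259 CPM in localized (256 to 263), the order that Acta2 also had. The difference between bulk and control depended on depth: its log2 ratio of 0.20 was 0.02 in cells of 6000 to 20000 UMIs, and bulk was below control at 6000 to 10000 UMIs (272 against 284 CPM) and at 10000 to 15000 UMIs (319 against 322 CPM). Its log2 ratio was 0.41 in bulk over localized, and it was above 0 in all 6 clusters (0.15 to 0.45). Vcl, which encodes vinculin, a protein that ties filaments to adhesion sites, differed little, at 26.6 CPM in control (25.4 to 28.0), 25.2 CPM in bulk (24.1 to 26.3) and 22.6 CPM in localized (21.6 to 23.7). Bulk overlaps control for Vcl, and localized lies below both. Vcl was 1.77, 1.17 and 2.40 times as high in barcodes of 10 to 100 UMIs as in cells of control, bulk and localized, so free RNA is relatively rich in it.

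Profiles over 20 groups of cells, each a cluster in 1 library, were used to find genes whose level followed a member. Among 5722 genes of at least 20 CPM on average, Acta2 was followed most closely by Igfbp2 (Pearson's r 0.99 of log2 CPM + 1), Anxa3, Rab3b, Serpinh1 and Hes1 (0.98 each). Tagln did not rank among those 5. For Actb the closest were Chd2, Mrpl23 and Grpel2 (0.89 each), Ppp4r2 and Katna1 (0.88 each). For Srf they were Snhg1 and Snhg5, hosts of small nucleolar RNAs (0.92 each), Rbm39 and Nfil3 (0.90 each) and Chd2 (0.89). Groups of 1 library share its depth and preparation, and the groups of 1 cluster share its makeup, so these values are descriptions.

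Genes around the members were described by lists. Of 6 SRF cofactor genes, 5 were found in every library, all with low counts. Mrtfa, the gene of MRTF-A, stood at 4.63 CPM in control, 8.01 CPM in bulk and 6.60 CPM in localized, and Mrtfb, that of MRTF-B, at 15.3, 22.6 and 17.6 CPM. Their log2 ratios in bulk over control were 0.68 and 0.54, opposite in sign to that of Srf. Myocd, the cofactor of heart and smooth muscle, had 0 UMIs in control, 2 in bulk and 0 in localized. Among the ternary complex factors, Elk3 had -0.42 in localized over control, at 15.7 against 21.3 CPM, and Elk4 0.40, at 16.6 against 12.3 CPM.

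Of 34 further cytoskeletal targets of MRTF and SRF, 24 had at least 20 CPM in bulk or control. There 15 were higher and 9 lower in bulk, with a median log2 ratio of 0.13 (0.07 for all genes of at least 20 CPM) and 1 at least 2-fold lower, where 0.602% of all 5810 genes were. That 1 was Cnn2, a calponin, whose level of 8.63 CPM in bulk compares with 21.1 CPM in control (-1.20). Actn1, an alpha-actinin that cross-links filaments, had the largest positive ratio of these 24, 0.88. In localized over control 13 of 25 were higher and 12 lower, where 62.3% of all genes were higher, with a median of 0.01 (0.09 for all genes). Zyx, the gene of zyxin at adhesion sites, had -0.62 there and 0.90 in bulk over localized. Among genes of at least 20 CPM, Cdc42ep3, which encodes an effector of Cdc42, had the largest ratio in size and the opposite direction. Its ratios were 0.98 in localized over control and -1.01 in bulk over localized. It stood at 9.89 CPM in control, 9.67 CPM in bulk and 20.5 CPM in localized. At that limit it was the one gene of the list past 2-fold in bulk over localized, where 0.633% of all genes were lower. Below 20 CPM, Filip1l stood at 1.55 CPM in control, 4.14 CPM in bulk and 1.31 CPM in localized. Its ratios were 1.01 in bulk over control and 1.15 in bulk over localized. Fhl2, also below 20 CPM, stood at 8.35, 2.57 and 3.23 CPM in these libraries. Its ratios over control were -1.39 in bulk and -1.14 in localized. The other muscle actins stayed low: Acta1 had 9, 7 and 12 UMIs and Actg2 17, 6 and 20 in control, bulk and localized. Actc1 had more, with 267, 172 and 374 UMIs, or 4.32, 2.22 and 4.91 CPM. Its log2 ratios were -0.73 in bulk over control and -0.88 in bulk over localized, opposite in sign to those of Acta2.

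Early response targets of the ternary complex factors differed between the treated libraries in the opposite direction to Acta2. Of 10 such genes, 5 had at least 20 CPM in bulk or localized, of which 3 were at least 2-fold lower in bulk, where 0.633% of all 6002 genes were. The median was -1.21, against -0.02 for all genes. Fos stood at 23.3 CPM in control, 18.9 CPM in bulk and 71.5 CPM in localized, Junb at 11.5, 12.4 and 35.9 CPM, and Ier2 at 75.6, 42.6 and 100.2 CPM. Egr1, a zinc finger factor, stood at 140.1, 85.5 and 164 CPM. Mcl1, which encodes a survival protein, was the exception with 0.42 in bulk over localized.

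Genes of actin turnover differed less. Of 19 measured turnover genes, 14 were higher and 5 lower in localized than in control, where 62.3% of all genes were higher, with a median of 0.15 (0.09 for all genes). None was past 2-fold, as 1.22% of all genes were upward and 1.02% downward. Tmsb4x, which encodes the monomer-binding thymosin beta-4, had the largest ratio, 0.84, at 12506 CPM against 7001 CPM in control and 8054 CPM in bulk. Pfn1, the gene of the monomer-binding profilin, had 0.43, at 766 against 567 CPM.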

How the data were processed

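Raw UMI counts per gene and barcode were deposited for 3 libraries. Per the file headers the matrices come from Cell Ranger 4. The submitters' processing notes name Cell Ranger 6, Seurat 4.0.4 and GRCm38. The sources used here give neither the annotation release nor the handling of reads that match several genes. Every barcode was listed (1591037 to 1726139 a library), so cells were called by the limits given above, which left 61775756, 77491732 and 76177026 UMIs in control, bulk and localized cells. UMIs outside barcodes of at least 3000 UMIs made up 17.0%, 9.59% and 9.09%. No doublet caller was run, so doublets remain.

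UMIs were summed over the cells of a library and scaled to CPM. A pseudocount of 1 CPM was added before log2 ratios were taken, so ratios of sparse genes such as Srf are understated. Intervals are exact Poisson for sums and Clopper-Pearson for shares. Cells were clustered with scanpy 1.11.5 on 2000 variable genes scaled within each library, 30 principal components, 15 neighbours and Leiden resolution 0.5. A cluster was named for the marker set with most genes among its 10 leading genes, given at least 1 there, at least 3 detected and a median above 0. Ratios and thinning were tested on simulated data. Coordinates come from GENCODE vM21 by gene identifier. The members and lists were chosen with earlier results of these data known. Named genes were all members, up to 3 genes per list and comparison with the largest ratios, and the 5 genes most like Acta2, Actb and Srf. Mrtfa, Myocd, Acta1, Actc1, Actg2, Cnn1, Des, Elk4, Filip1l, Fhl2 and the markers of other cells fall outside this rule. They were picked with their values known, and so were Egr1 and Mcl1 in bulk over localized and the limit of 3 CPM. Alternatives covered scaling, pseudocount, depth limits, mitochondrial limit, cell weighting, free RNA, clusters and marker-positive cells. One gene list and 1 marker are not reported here.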

Additional observations from a re-analysis of the deposited data

Results flagged for a closer look

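In barcodes of 10 to 100 UMIs, which no comparison of cells uses, 3 members stood above the control level beyond counting error. Acta2 was found there at 141 CPM in bulk against 114 CPM in control, and Tagln2 at 216 against 183 CPM. Tpm1 stood at 194 CPM in bulk and 270.3 CPM in localized, against 161 CPM in control. For each of these members the order of the 2 libraries was the same in cells.

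The ratio of Acta2 in bulk over control went in opposite directions in the precursor-like clusters, with 0.63 in cluster 4 and -0.99 in cluster 5, and the counting intervals of the levels did not overlap in either. With 1 library per group the difference between clusters was not tested. The levels were 26.0 CPM in control and 40.7 CPM in bulk in cluster 4, and 18.3 and 8.72 CPM in cluster 5. In cluster 4 the thinned share of cells with an Acta2 UMI was not higher in bulk, at 4.15% against 4.85% in control. The opposition was not found at Leiden resolution 1.0, where the 3 precursor-like clusters had 17.6, 9.56 and 54.4 CPM in control and 24.1, 10.6 and 101 CPM in bulk.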

How the results depend on the processing

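Of the 30 ratios of members between libraries, 25 kept their sign under all 12 alternatives, and the 5 that did not had a size of 0.13 or less (Tagln, Myl9 and Vcl in bulk over control, Myl9 in localized over control, Tpm2 in bulk over localized). The Acta2 ratio ran from -1.20 to -0.97 in localized over control and from 1.31 to 1.5 in bulk over localized, and that of Srf from -1.25 to -0.72 in bulk over control. The median of all genes went, under median-of-ratios scaling, from 0.07 to 0.01 and from 0.09 to 0.02 over control. The members' median moved to -0.41 in localized over control under that scaling, to -0.01 in bulk over control in cells of 6000 to 20000 UMIs, and to 0.22 in bulk over localized in those cells and in cells of at most 25000 UMIs. Members past 2-fold numbered 0 in bulk over control with a pseudocount of 5 CPM or equal weight per cell. In localized over control they numbered 2 under median-of-ratios scaling, with a pseudocount of 0.1 CPM or in the largest cluster, and 0 with equal weight per cell. The median share of cells with a member's UMI was 20.1%, 23.1% and 15.4% in control, bulk and localized after thinning to 3000 UMIs, 25.9%, 28.5% and 19.3% at 4500 UMIs, and 34.0%, 41.1% and 30.9% without thinning. At Leiden resolution 1.0 the highest Acta2 level of a cluster was 480.2, 725 and 198 CPM in control, bulk and localized, against 383, 478 and 172 CPM. It was that of an astrocyte-like cluster in each library. There the 1 mural marker detected had a mean log2 ratio of 1.12 to the other cells. The causes of these moves were not tested. No paired analysis was possible because each group had 1 library.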
